A study of Mus musculus with 4 samples.

Results

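The genes described here are 7 imprinted regulators of growth: H19, Igf2, Cdkn1c, Dlk1, Meg3, Igf2r and Grb10. They were chosen by name and located by 5 approximate intervals of the mouse genome build mm9, rounded to 10 kb, with H19 and Igf2 sharing an interval and Dlk1 and Meg3 sharing another. The series compared chromatin folding in fetal and adult haematopoietic stem cells (HSCs) by Hi-C, which counts how often pairs of sites on the chromosomes are ligated to each other after fixation. Of the 4 samples, 2 were HSCs of fetal liver at embryonic day 14.5 and 2 were HSCs of bone marrow of mice aged 6 to 8 weeks, all of the strain B6129SF1 and, per the labels' protocols, sorted as Lin-Sca1+cKit+CD135-. The number of animals behind a sample is not stated in the labels. The files hold no RNA level, so the sorted cells could not be checked against marker genes.

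The values were positions of topologically associating domains (TADs), the stretches of a chromosome that contact themselves more than their surroundings. There was 1 TAD list for each cell type, called fetal and adult below, so the spread between replicates is not known and differences between the lists are given without a test. The depth of sequencing is unknown as well. Except for 10 boundaries in each list, none of them an end of a TAD over these genes, positions lie on a grid of 10 kb, so differences between the ends described here come in steps of 10 kb. The lists do not separate the maternal from the paternal chromosome. Over the 5 intervals lay 4 of the 2318 fetal TADs and 6 of the 2310 adult TADs.

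Imprinted genes are expressed mainly from the copy inherited from 1 parent, and clusters of them are controlled by DNA elements that carry methyl groups on only 1 parental copy. At H19 and Igf2 such an element binds the insulator protein CTCF on the unmethylated maternal copy, which keeps enhancers beyond H19 from reaching Igf2. Many of these genes set growth in opposite directions: Igf2 is a fetal growth factor, Igf2r removes that factor from the cell surface, Grb10 is an adaptor that dampens insulin and growth factor receptors, and Cdkn1c, also called p57, is an inhibitor of the cell cycle with a known role in the quiescence of adult HSCs. Dlk1 is a Notch-like membrane protein made by fetal tissues, and H19 and Meg3 are long non-coding RNAs made from the maternal copy.

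The 5 intervals fell into 2 kinds. At Dlk1 and Meg3 and at Cdkn1c the TAD had nearly the same ends in both lists. At H19 and Igf2, at Igf2r and at Grb10 at least 1 end differed by 100 kb or more. Every interval except that of Grb10 lay whole inside a single TAD in each list.

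**Figure D1:**
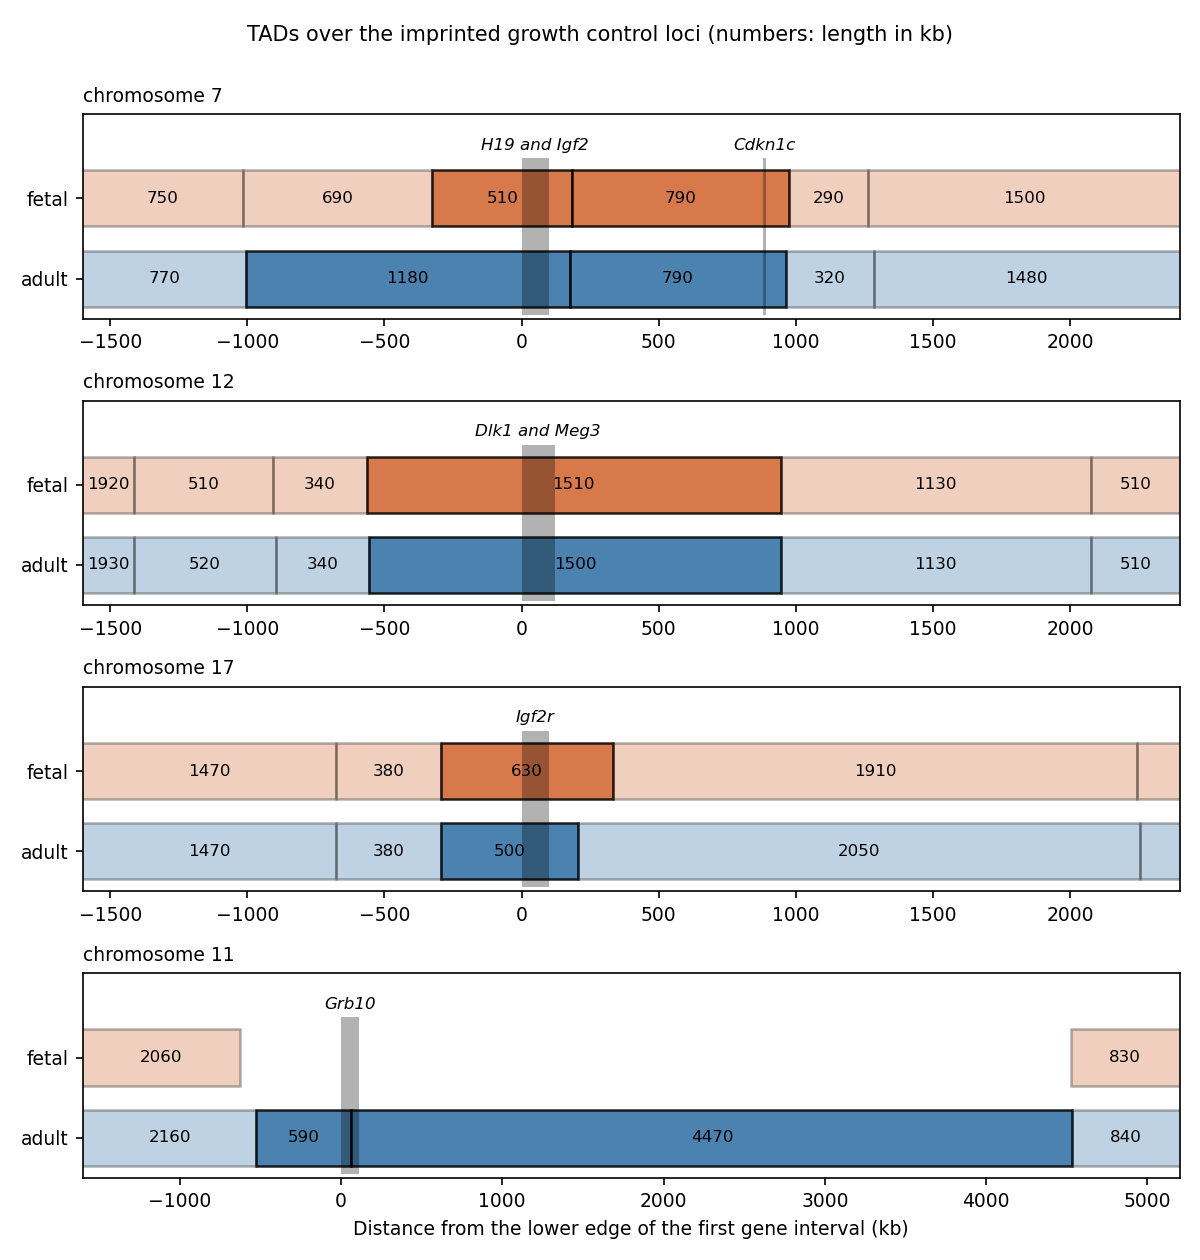
Horizontal position is the distance in kb from the lower edge of the first gene interval of each panel, and each box is a TAD of the fetal (upper row) or adult (lower row) list, with its length in kb. Grey bands mark the gene intervals and dark boxes the TADs over them; up to 3 further TADs are drawn on each side, and at Grb10 the fetal row is empty for 5150 kb.

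The growth factor locus itself showed an adult TAD that joined 2 fetal ones. In the fetal list H19 and Igf2 lay in a TAD of 510 kb on chromosome 7, from 149435001 to 149945000. In the adult list they lay in a TAD of 1180 kb, from 148755001 to 149935000. The adult TAD thus took in almost the whole fetal TAD, 500 kb or 98% of it, and also the fetal TAD next to it, which measured 690 kb.

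The outer ends of this region were alike. The upper end, 85 kb beyond the H19 and Igf2 interval in the fetal list, was 75 kb beyond it in the adult list. The lower end of the adult TAD, at 148.755 Mb, was 10 kb from a fetal boundary at 148.745 Mb. The inner fetal boundary at 149.435 Mb, 325 kb below the interval, had its nearest adult boundary 500 kb away. Only 131 of 2393 fetal boundaries, or 5.47%, were at least as far from any adult boundary.

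An adult TAD whose ends both match fetal boundaries within 40 kb, and which holds a further fetal boundary more than 40 kb from those ends, is called divided here. This was true of 132 of the 2310 adult TADs, or 5.71%, and of 1 of the 6 over these genes, that of H19 and Igf2. The 510 kb of the fetal TAD placed it at the 23.4th percentile of fetal TAD lengths, while the adult 1180 kb lay at the 76th percentile of the adult list.

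Cdkn1c, the cell cycle inhibitor, also lies on chromosome 7, and 780 kb separate its interval from that of H19 and Igf2. Its TAD measured 790 kb in both lists. It ran from 149945001 to 150735000 in the fetal list and from 149935001 to 150725000 in the adult list, a step of 10 kb at each end. The 2 TADs overlapped by 98.7% of their lengths. Cdkn1c stood near the upper end of this TAD, 85 kb (fetal) and 75 kb (adult) from it, while the lower end was 695 and 705 kb away.

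A boundary therefore separated Cdkn1c from H19 and Igf2 in both lists. It was the lone boundary between the intervals in each list, at 149.945 Mb in the fetal and 149.935 Mb in the adult list, and it stood closer to Igf2 than to Cdkn1c. In the RefSeq gene table, which is of the build GRCm38.p6 and was used only for the order of genes, 8 protein-coding genes lie between Igf2 and Cdkn1c. In order from Igf2 they are Ins2, Th, Ascl2, Tspan32, Cd81, Tssc4, Trpm5 and Kcnq1. Ins2 encodes insulin, Ascl2 is a transcription factor needed for the placenta, and Kcnq1 is a potassium channel gene. The non-coding RNA Kcnq1ot1, whose transcription from the paternal copy silences Cdkn1c and its neighbours, lies within that order too. Which of these genes fall on which side of the boundary was not analysed here, since their mm9 positions were not at hand. Beyond Cdkn1c the next TAD measured 290 kb (fetal) or 320 kb (adult), and both lists then ended with a TAD that closed at the same last coordinate, 1874.6 kb above the Cdkn1c interval.

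Dlk1 and Meg3, expressed from opposite parental copies, lay together in the TAD with the smallest difference. It measured 1510 kb in the fetal list, on chromosome 12 from 110125001 to 111635000, and 1500 kb in the adult list, from 110135001 to 111635000. The upper ends were identical and the lower ends 10 kb apart. This was the longest of the fetal TADs over these genes, at the 82.9th percentile of its list, and it lay at the 84.3rd percentile of the adult list. The genes stood well inside it, at least 555 kb from the lower end and 825 kb from the upper end. The TAD below had a reciprocal overlap of 97.1%, with 340 kb in both lists and each end 10 kb apart, and the TAD above, of 1130 kb, was identical in both lists. In gene order the next protein-coding genes outside the pair were Begain below and Dio3 above, and Rtl1, an imprinted gene derived from a retrotransposon, lies at least partly between the outer edges of the pair in that table.

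Of the 4 pairs of these genes on a shared chromosome, H19 with Igf2 and Dlk1 with Meg3 each lay in 1 TAD in both lists. H19 with Cdkn1c and Igf2 with Cdkn1c were apart in both. No pair changed between the lists.

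Igf2r encodes the receptor that carries Igf2 to the lysosome. Its TAD began at the same position in both lists and ended earlier in the adult list. It measured 630 kb in the fetal list, on chromosome 17 from 12575001 to 13205000, and 500 kb in the adult list, from 12575001 to 13075000. The upper end lay 235 kb above the Igf2r interval in fetal HSCs and 105 kb above it in adult HSCs, a difference of 130 kb. Of the fetal boundaries, 272 of 2393, or 11.4%, were at least as far from an adult one.

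The shifted end is the one that faces the start of the gene, because Igf2r is on the minus strand. Below the gene both boundaries within 1 Mb, at 12.195 and 12.575 Mb, were identical in the lists, and so were the TADs of 380 and 1470 kb there. Above it the next TAD was longer in the adult list, at 2050 kb against 1910 kb. In gene order Mas1, a receptor for an angiotensin fragment, is the next protein-coding gene above Igf2r, and the antisense RNA Airn, which silences Igf2r on the paternal copy, overlaps the gene.

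Grb10 differed most. The fetal list held no TAD over it: a stretch without a TAD ran on chromosome 11 from 11205001 to 16355000, 625 kb of it below the gene interval and 4415 kb above. At 5150 kb this stretch was longer than any TAD, since the longest TAD measured 4690 kb (fetal) or 4670 kb (adult). Of the 55 such stretches between fetal TADs, 17 were longer. Their median, 4720 kb, was itself above the longest TAD of either list. Whether a limit on the length of listed TADs left this stretch without an entry was not tested, so the missing entry does not show that fetal HSCs lack a domain there. No adult stretch without a TAD lay over any of the 5 intervals.

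The adult list covered the whole of that stretch with TADs, and a boundary between 2 of them fell inside the Grb10 interval. The lower TAD measured 590 kb, from 11305001 to 11895000, and the upper one 4470 kb, from 11895001 to 16365000. The upper TAD was exceeded in length by 2 of the 2310 adult TADs. The boundary at 11.895 Mb lay 65 kb above the lower edge of the interval and 45 kb below its upper edge, and it was 690 kb from the nearest fetal boundary. At least as great a distance was found for 50 of 2391 adult boundaries, or 2.09%.

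The other ends differed less. The lower end of the 590 kb TAD was 100 kb from the fetal boundary at 11.205 Mb where the stretch begins, and the upper end of the 4470 kb TAD was 10 kb from the fetal boundary at 16.355 Mb where it stops. In all, 41 adult boundaries lay inside fetal stretches without a TAD, of which 11 were more than 40 kb from any fetal boundary. The boundaries at 11.305 and 11.895 Mb were 2 of these 11.

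In gene order Ddc, which makes dopamine and serotonin, is the protein-coding neighbour of Grb10 below, and Cobl, an actin-nucleating protein, is the neighbour above. If that order holds in mm9, the adult boundary inside Grb10 has Ddc on the side of the 590 kb TAD and Cobl on the side of the 4470 kb TAD. Grb10 is on the minus strand, so its start faces Cobl. The table of RefSeq promoters gave 2 start sites for it, 9.45 kb apart and both within 9.46 kb of the upper edge of the gene in GRCm38.p6. The adult boundary lay 45 kb below the upper edge of the approximate mm9 interval, so both start sites would fall on the side of the 4470 kb TAD if the interval and the layout of the gene hold in mm9, which was not checked against an mm9 annotation. The gene measures 107 kb in that table and the interval 110 kb.

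Promoter windows are shown for Grb10 and Igf2r because their start sites face, or lie next to, a TAD boundary that differed between the lists. Each holds 250 bases before and 50 bases after a start site, from RefSeq in GRCm38.p6, a build whose coordinates cannot be set beside the mm9 positions of the TADs. All are read 5′ to 3′ on the minus strand, and capitals mark CpG, the pair of bases that carries DNA methylation. The first Grb10 window lies at chr11:12037371-12037670, the second at chr11:12027922-12028221, and that of Igf2r at chr17:12769657-12769956.
Grb10, outer start: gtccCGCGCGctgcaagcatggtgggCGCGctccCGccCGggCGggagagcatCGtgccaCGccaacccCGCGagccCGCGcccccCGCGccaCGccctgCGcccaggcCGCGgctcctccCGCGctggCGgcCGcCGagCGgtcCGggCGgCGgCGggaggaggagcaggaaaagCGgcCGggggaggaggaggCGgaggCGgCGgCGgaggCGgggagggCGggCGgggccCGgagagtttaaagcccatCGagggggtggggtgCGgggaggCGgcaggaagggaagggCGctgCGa
Grb10, inner start: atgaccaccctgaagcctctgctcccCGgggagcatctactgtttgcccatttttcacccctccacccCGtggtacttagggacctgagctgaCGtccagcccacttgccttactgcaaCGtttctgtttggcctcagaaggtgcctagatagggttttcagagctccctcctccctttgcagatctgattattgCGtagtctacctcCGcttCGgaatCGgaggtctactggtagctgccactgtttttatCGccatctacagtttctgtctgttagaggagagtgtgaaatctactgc
Igf2r: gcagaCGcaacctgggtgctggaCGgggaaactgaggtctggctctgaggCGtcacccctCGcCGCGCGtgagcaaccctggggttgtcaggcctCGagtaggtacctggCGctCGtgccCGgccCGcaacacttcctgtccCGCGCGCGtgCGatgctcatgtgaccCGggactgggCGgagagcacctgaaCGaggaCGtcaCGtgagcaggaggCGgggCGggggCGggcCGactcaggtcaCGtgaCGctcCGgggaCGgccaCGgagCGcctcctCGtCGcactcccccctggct

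The outer Grb10 window held 45 CpG, and 1.93% of the 32851 promoter windows of the table held at least as many. The inner Grb10 window held 9, and the Igf2r window 34. The median over all windows was 7. Promoters were matched for 5 of the 7 genes, with 10 windows in all and from 1 CpG (a Meg3 start) to 45. For Igf2 the 4 windows held 2, 7, 14 and 24 CpG, and for Dlk1 the window held 9. The TAD lists hold no methylation value, so these counts describe the sequence alone.

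Counted together, 5 of the 7 distinct ends of the fetal TADs over these genes lay within 40 kb of an adult boundary, beside 83.4% of all 2393 fetal boundaries. Of the 10 distinct ends of the adult TADs, 7 lay within 40 kb of a fetal boundary, beside 83.5% of all 2391. The matched ends were close: 2 were identical and 3 were 10 kb apart in the fetal list, and 2 were identical and 5 were 10 kb apart in the adult list. The unmatched ends were those already named, at 100, 130, 500 and 690 kb. With so few ends, these counts do not set the genes apart from the rest of the genome.

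**Figure D2:**
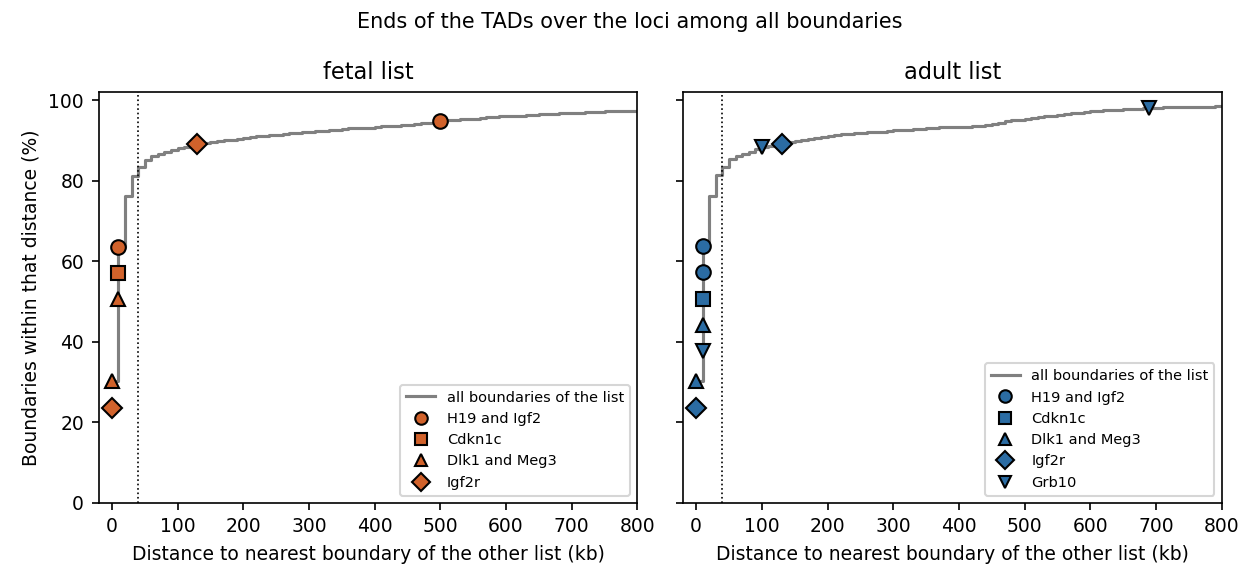
The horizontal axis is the distance in kb from a boundary to the nearest boundary of the other list, the grey line the percentage of all boundaries within that distance, and the dotted line the tolerance of 40 kb; markers are the ends of the TADs over the genes, stacked downwards from the line where several share a distance. In the fetal list 5 of 7 ends lie left of the dotted line, and in the adult list 7 of 10, with the Grb10 boundary farthest right at 690 kb.

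Whole TADs were also compared, calling a TAD a counterpart when it overlapped a TAD of the other list by at least 80% of both lengths. Of the 4 fetal TADs, 2 had a counterpart, beside 73.4% of all fetal TADs, and of the 6 adult TADs 2 had one, beside 73.7% of all adult TADs. The 2 were those of Cdkn1c and of Dlk1 and Meg3. Both adult Grb10 TADs lay wholly or almost wholly in the stretch without a fetal TAD, so neither could have a counterpart. With so few TADs, these counts do not set the genes apart from the rest of the genome either. The Igf2r TADs overlapped by 79.4%, just under the limit, so an overlap limit of 50% counts them in. The H19 and Igf2 TADs overlapped each other by 42.4%, and the best partner of the adult one, at 57.6%, was the fetal TAD of 690 kb that holds neither gene.

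The 4 fetal TADs had a median of 710 kb, against 790 kb for all fetal TADs, and ran from 510 to 1510 kb. The 6 adult TADs had a median of 985 kb, against 760 kb, and ran from 500 to 4470 kb. The TAD was longer in the adult list at H19 and Igf2, shorter at Igf2r and within 10 kb at Cdkn1c and at Dlk1 and Meg3, so the genes had no common direction.

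**Figure D3:**
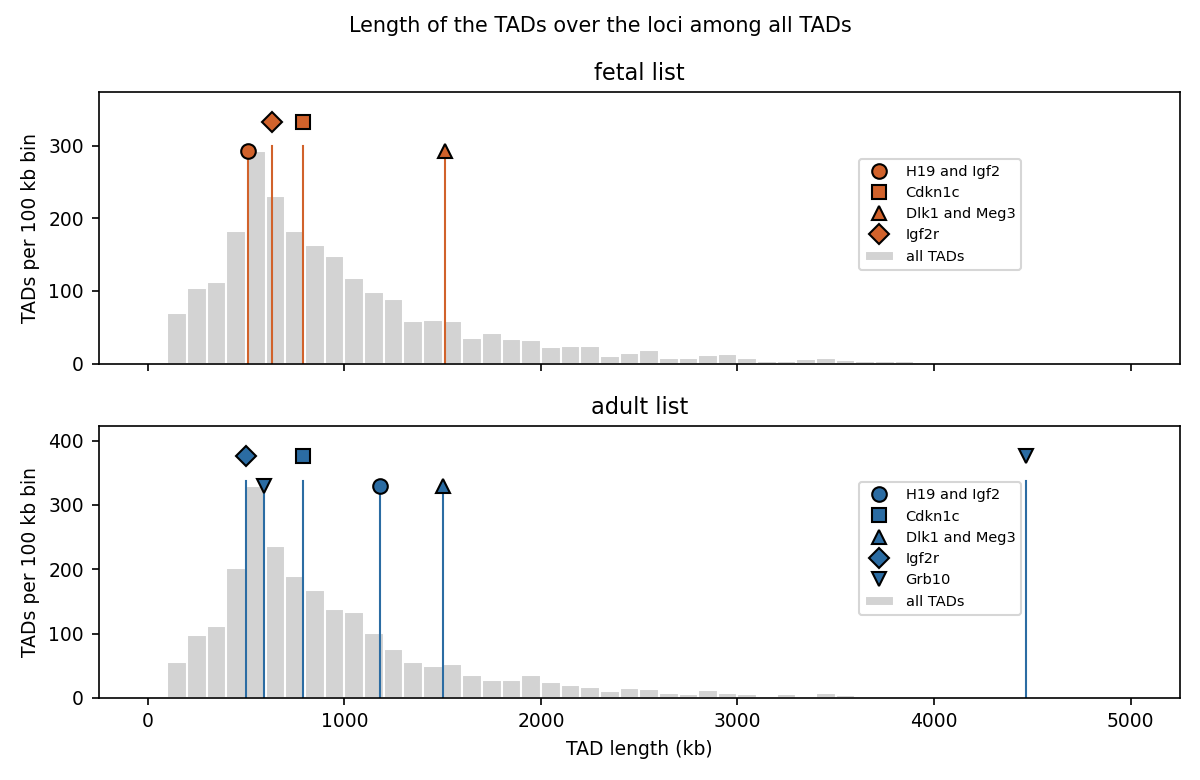
Grey bars count all TADs of each list by length in bins of 100 kb, and markers with lines give the length in kb of each TAD over the genes. The H19 and Igf2 marker stands at 510 kb (fetal) and 1180 kb (adult), and the adult Grb10 TADs stand at 590 and 4470 kb.

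Boundaries within 1 Mb of the intervals were counted too. They include all 7 ends of the fetal TADs over the genes and 8 of the 10 adult ones. The other adult ends, at 148.755 Mb (H19 and Igf2) and 16.365 Mb (Grb10), lay farther out, each 10 kb from a fetal boundary. Each list had 11 distinct boundaries within 1 Mb, of which 8 had a partner within 40 kb. This is 72.7% (95% exact Clopper-Pearson interval 39 to 94, counting error only), beside 83.4% of all fetal and 83.5% of all adult boundaries. Without Grb10 the share was 80% of 10 fetal and 88.9% of 9 adult boundaries. Identical positions made up 27.3% of the 11 boundaries in each list, against 30.1% of all fetal and 30.2% of all adult boundaries. Most of the 11 were ends of the TADs over the genes: only 4 fetal and 3 adult boundaries were not, of which 3 in each list were matched. Around Cdkn1c and around Dlk1 and Meg3 all 3 boundaries of each list were matched. Around H19 and Igf2 this held for 2 of 3 fetal and 2 of 2 adult boundaries, and around Igf2r for 2 of 3 in each list. The matched boundaries around H19 and Igf2 are also among those around Cdkn1c, because these windows overlap. Around Grb10 none was matched, neither the 1 fetal nor the 2 adult boundaries. The Grb10 chromosome as a whole matched less: 61.6% of its 99 fetal boundaries (51.3 to 71.2) and 55.5% of its 110 adult boundaries (45.7 to 64.9) had a partner. On chromosome 7 the shares were 84% and 86.1%, on chromosome 12 they were 85.5% and 89.5%, and on chromosome 17 they were 89.4% and 86.6%. The part of chromosome 11 as a whole, or of the depth of the lists, in the Grb10 difference was not tested.

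**Figure D4:**
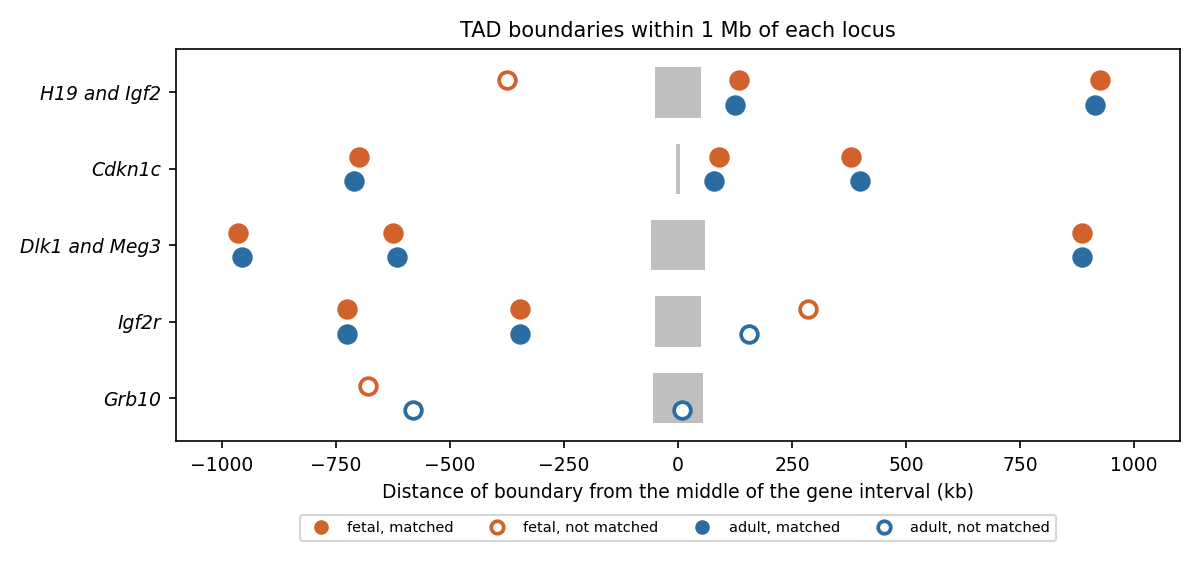
Each point is a TAD boundary within 1 Mb of a gene interval, placed by its distance in kb from the middle of the interval (grey band), in the fetal (orange) or adult (blue) list; filled points have a boundary of the other list within 40 kb. The open points are the fetal boundary below H19 and Igf2, the upper boundaries at Igf2r, and all 3 boundaries at Grb10, of which 1 lies inside the gene interval.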

How the data were processed

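The authors deposited, per the labels, 1 list of TADs for each cell type, as chromosome, start and end in base positions with no score. Per the submitters' processing notes, the build was mm9 and the tools HiC-Pro and GSNAP were used. Their settings, the TAD caller, any pooling of samples and the sequencing depth are not stated in these sources, and each could move a boundary. From the lists, TADs overlapping each gene interval, distances between nearest boundaries (tolerance 40 kb), reciprocal overlaps (80%) and boundaries within 1 Mb were computed. Python 3.11.15, NumPy 2.4.6 and SciPy 1.17.1 were used. Boundary matching was checked on simulated lists with shifted boundaries, from which close boundaries had been left out. Divided TADs were checked with unshifted ends only, and overlap against a single partner only, so these checks were less demanding. A boundary shared by adjoining TADs was counted once, and printed starts count from 1.

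With 1 list per cell type no test was possible. The genes, lists and settings were chosen with earlier results of these data known. The named genes are the 7 chosen ones and, by gene order in the GRCm38.p6 table, those between or next to them; not every neighbour is reported here. Other imprinted genes were not placed, since that table is of another build. Alternatives were tolerances of 10, 20 and 100 kb, overlaps of 50% and 90%, windows of 0.5 and 2 Mb, intervals widened by 50 kb or reduced to their middle, ends matched by kind, TADs of at least 200 kb, lengths ranked within chromosomes, and leaving out Grb10.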

Additional observations from a re-analysis of the deposited data

How the results depend on the processing

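Of 38 alternative values, 35 stayed (counts within 1.5 times, shares and percentiles inside their 95% exact interval) and 3 moved. With so few ends and boundaries the limits for counts and shares are wide, so staying within them is little evidence of stability. The share of matched adult boundaries around the loci, for example, stayed although it went from 72.7% to 88.9% without Grb10. An overlap limit of 50% raised the adult TADs with a counterpart from 2 to 4, since it admits less similar pairs: Igf2r, and H19 and Igf2 through the fetal TAD of 690 kb. Ranked within chromosomes, the median length percentile went from 43.8 to 49 in the fetal list and from 64.5 to 60.7 in the adult list. Both count as moved because the limits for percentiles are narrow. Those limits do not measure the spread among the 4 fetal or 6 adult TADs behind each median. Without Grb10, a setting chosen after seeing the data for the ends, 6 of 7 adult ends were matched. The fetal list has no TAD over Grb10, so its 5 of 7 matched ends could not change under this setting. No paired analysis was possible because each cell type has a single list, which also prevented leaving out a replicate. Unknown depth limits every absence of a boundary, and the gene intervals are rounded to 10 kb.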
